A study of Mus musculus with 141 samples.

Results

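The immediate early genes described here are 10 of the 36558 genes in the tables. They were chosen as a named list of rapidly induced transcription factors and feedback regulators, namely *Fos*, *Fosb*, *Jun*, *Junb*, *Atf3*, *Egr1*, *Nr4a1*, *Ier2*, *Dusp1* and *Btg2*, and every one of the 10 passed the filter on low counts. The libraries came from inguinal white adipose tissue (iWAT) of strains in the Hybrid Mouse Diversity Panel (HMDP), which joins classical inbred with recombinant inbred mice, bought from The Jackson Laboratory and bred at UCLA. All animals ate chow until 8 weeks of age, then food rich in fat and sucrose (HF/HS) for 8 weeks, and were fasted for 4 h before collection, so every group shared that diet and no chow-fed group was measured. RNA was sequenced as stranded paired-end libraries, 1 library for each strain and sex, giving 67 female and 74 male libraries of 82 strains, of which 59 had both sexes. The title suffix F or M gave the sex, and the strain name gave the family. There were 21 female and 23 male classical inbred libraries, 32 and 34 BXD, 9 and 11 AXB/BXA, 3 and 3 CXB, and 2 and 3 BXH. The methods state 1 to 4 samples per sex and strain, while the tables hold a single column for each, so the strain was the replicate and the spread between animals of a strain could not be measured. AXB19/PgnJ, AXB19a/PgnJ and AXB19b/PgnJ share a line number in their names and were counted as separate strains. Only the family tests were repeated with AXB19/PgnJ alone of these.

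Immediate early genes are transcribed within minutes of a stimulus without the need for new protein synthesis, through transcription factors already in place such as SRF with its ELK partners and CREB, which are switched on by MAP kinases and cAMP signalling. Many of their products are short-lived transcription factors that pass the signal on, and others are feedback regulators that shut it off again. In adipose tissue they respond to adrenergic signals, feeding, growth factors and cytokines. *Fos* and *Fosb* encode FOS-type partners of the AP-1 transcription factor, and *Jun* and *Junb* encode its JUN-type partners. *Atf3* encodes a stress-induced CREB/ATF family factor that can pair with JUN proteins. *Egr1* encodes a zinc finger transcription factor, *Nr4a1* an orphan nuclear receptor, and *Ier2* a small nuclear regulator of transcription. *Dusp1* encodes a phosphatase that inactivates MAP kinases, and *Btg2* an anti-proliferative cofactor that promotes mRNA deadenylation.

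Promoter sequences were matched for 8 of the 10 genes in the RefSeq table for GRCm38.p6, and those of *Egr1* and *Ier2* were not among them. The 250 bases before the annotated start of the first RefSeq entry of each gene were searched on both strands for 9 motifs. Other starts were not searched. The windows of *Atf3*, *Dusp1* and *Nr4a1* lie inside the gene spans given below, not before their outermost start. The cAMP response element half-site TGACGT, the binding sequence of CREB and ATF factors, was present in 4 of the 8 windows and in 6.56% of all 27025 promoter windows of the same length. The full palindrome TGACGTCA, which contains the half-site on each strand, was present in *Dusp1* and *Btg2* and in 1.62% of all windows. These 4 windows are printed 5′ to 3′ on the gene's own strand, with TGACGT in either orientation and the TATA motif TATAAA in capitals, because they show where in each window the shared letters lie.
Fos: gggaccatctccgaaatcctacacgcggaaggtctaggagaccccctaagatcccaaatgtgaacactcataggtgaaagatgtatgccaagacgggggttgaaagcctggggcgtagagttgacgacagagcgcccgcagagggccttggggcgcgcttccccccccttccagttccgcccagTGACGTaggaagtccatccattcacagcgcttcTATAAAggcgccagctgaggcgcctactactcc
Atf3: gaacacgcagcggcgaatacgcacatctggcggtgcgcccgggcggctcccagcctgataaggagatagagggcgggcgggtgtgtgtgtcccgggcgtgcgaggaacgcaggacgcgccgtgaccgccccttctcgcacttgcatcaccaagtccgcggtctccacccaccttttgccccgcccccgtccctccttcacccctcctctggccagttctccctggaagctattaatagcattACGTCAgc
Dusp1: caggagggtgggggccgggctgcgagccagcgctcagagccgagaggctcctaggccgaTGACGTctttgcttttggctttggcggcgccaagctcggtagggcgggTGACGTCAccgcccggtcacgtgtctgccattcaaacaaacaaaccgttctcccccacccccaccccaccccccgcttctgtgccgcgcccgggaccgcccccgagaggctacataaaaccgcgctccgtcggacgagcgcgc
Btg2: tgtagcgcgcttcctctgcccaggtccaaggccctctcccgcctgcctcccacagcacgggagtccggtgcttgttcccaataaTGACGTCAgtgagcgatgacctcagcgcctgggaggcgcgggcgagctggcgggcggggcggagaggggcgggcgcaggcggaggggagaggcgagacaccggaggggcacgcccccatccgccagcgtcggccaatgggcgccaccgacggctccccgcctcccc
The windows are chr12:85473640-85473889 (+) for *Fos*, chr1:191183334-191183583 (-) for *Atf3*, chr17:26508473-26508722 (-) for *Dusp1* and chr1:134079156-134079405 (-) for *Btg2*. Counting back from the start, the half-site lay at bases -66 to -61 in *Fos*, which also held TATAAA at -33 to -28, and at -8 to -3 in *Atf3*. In *Dusp1* the palindrome lay at -143 to -136 with a further half-site at -191 to -186, and in *Btg2* the palindrome lay at -166 to -159. The EGR-type motif GCGNGGGCG was found in *Fosb*, *Nr4a1* and *Btg2* and in 4.65% of all windows. The GC box GGGCGG, which can overlap GCGNGGGCG, was found in 7 of 8 and in 32.9% of all windows. CCAAT was found in *Jun*, *Junb* and *Btg2* and in 34.5% of all windows, and TATAAA in *Fos* and in 3504 of the 27025. The AP-1 site TGANTCA (6.87% of all windows), the CArG box (1.40%) and AAAGGTCA (1.31%) were not among the letters of these 8 windows. Bases more than 250 before the start, *Egr1* and *Ier2* were not covered, so this absence holds for these windows only. A match is a run of letters and was not read as a bound site.

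On GRCm38, the FOS-type genes lie at chr12:85473890-85477273 on the plus strand (*Fos*) and chr7:19302696-19310051 on the minus strand (*Fosb*). *Jun* lies at chr4:95049034-95052222, and *Junb* at chr8:84974484-84978718, both on the minus strand. *Ier2* lies on the same chromosome as *Junb*, at chr8:84661331-84662852 on the minus strand. *Atf3* (chr1:191170296-191218039) and *Btg2* (chr1:134075170-134079120) are on the minus strand of chromosome 1. *Egr1* lies at chr18:34859823-34864984 and *Nr4a1* at chr15:101254269-101274795, both on the plus strand, and *Dusp1* at chr17:26505590-26562128 on the minus strand.

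Estimated counts per library summed to 6269154 to 39543043 in females (median 29991452) and 11747373 to 78562648 in males (median 30770100), and the mitochondrially encoded share was 3.99% to 29.9% (median 8.51%). The 5 adipocyte markers were detected throughout, with summed TPM (transcript abundance corrected for length and depth) of 5445 to 61550 in females and 12050 to 63720 in males. In 3 libraries the sex-linked expression went against the sex in the label: the BXD34/TyJ and BXD69/RwwJ females and the NZW/LacJ male, of which NZW/LacJ alone is a matched strain. The BXD34/TyJ female library stood furthest from the rest, with the lowest total, the highest mitochondrial share and a median rank correlation of 0.674 with the other libraries, against a median over libraries of 0.939. It gave the lowest female TPM of 9 of the 10 genes, so the next lowest female value is given beside it below. The AXB12/PgnJ female library was next (0.837), and it gave the highest female TPM of *Junb* and *Btg2*. Among males, CXB11/HiAJ had the highest total and a mitochondrial share of 25.1%, and was among the 5 lowest males for all 10 genes by TPM but for 4 of 10 by CPM (counts scaled to library size with TMM factors). BXD34/TyJ had no male library and did not enter the comparison of the sexes.

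On the per-length TPM scale, *Dusp1* was the most abundant of the 10 genes, with a median of 41.999 TPM over all libraries, and *Fosb* the least, with 0.818 TPM. Between them the medians ran from *Btg2* (35.3), *Jun* (26.6), *Junb* (16.95), *Egr1* (15.7), *Ier2* (13.2), *Fos* (10.4) and *Atf3* (6.86) to *Nr4a1* (5.74). Neighbours in this order overlapped widely. *Dusp1* exceeded *Btg2* in 93 libraries, *Junb* exceeded *Egr1* in 68, *Atf3* exceeded *Nr4a1* in 83, and *Nr4a1* exceeded *Fosb* in 140. Over both sexes the coefficient of variation of TPM was highest for *Atf3* (123.3%) and *Fosb* (100.6%) and lowest for *Jun* (31.4%) and *Btg2* (34.1%). Within a sex the order differed, with *Atf3* followed by *Egr1* (62.5%) and *Fosb* (60.4%) in females, and *Fosb* (117.7%) followed by *Atf3* and *Fos* (74.1%) in males. The lowest estimated count of *Fosb* in any library was 11, and counting error weighs most on this gene.

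**Figure D1:**
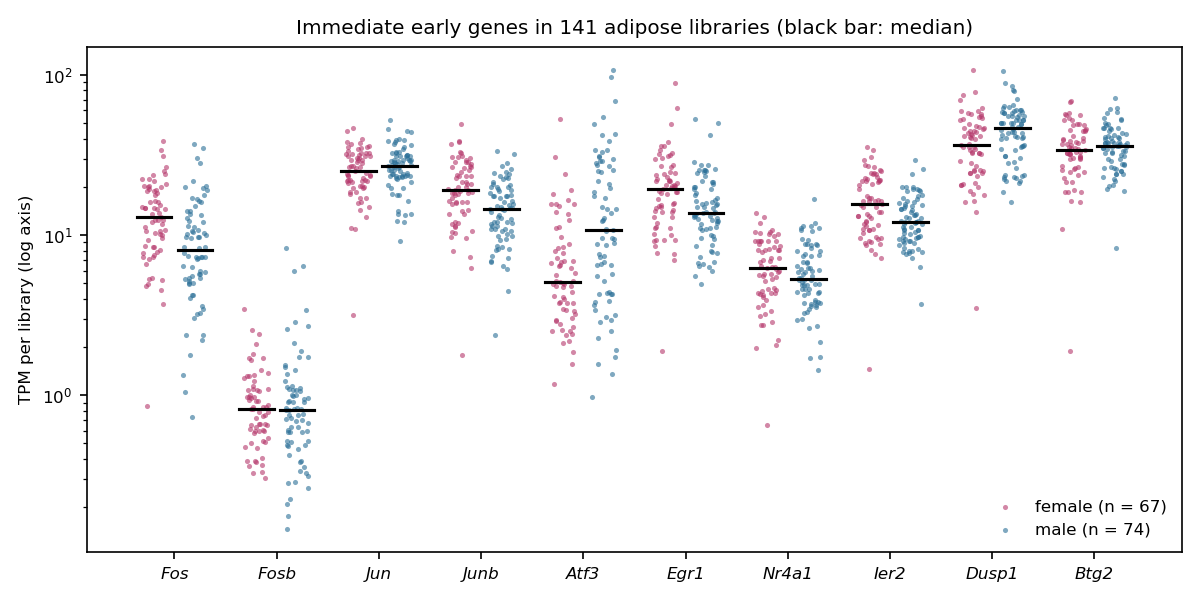
TPM per library on a log axis for each of the 10 immediate early genes in 67 female and 74 male libraries; each point is 1 library and the black bar is the median. The sexes overlap for every gene, with median *Fos* of 12.9 TPM in females and 8.02 in males and median *Atf3* of 5.10 and 10.7.

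Between the sexes, 4 of the 10 genes (*Fos*, *Junb*, *Ier2* and *Egr1*) were higher in females and 3 (*Atf3*, *Dusp1* and *Jun*) were higher in males. This comparison asked how female and male iWAT of the same strain differed, over 59 strains, with edgeR's quasi-likelihood test, strain as a block and Benjamini-Hochberg adjustment over all 16765 genes tested. Of all those genes 58.1% were called, 28.4% higher and 29.8% lower in females, so 7 of 10 is near the share of genes in general. The median log2 fold change of the members was 0.08 (female vs. male), against 0.01 over all genes.

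*Fos* ranged from 0.859 TPM through a median of 12.9 to 38.7 in the 67 females (second lowest 3.73), and from 0.728 through 8.02 to 36.9 in the 74 males. The ranges overlapped over most of their width, and the highest libraries were KK/HlJ among females and CE/J among males. In matched strains it averaged 17.1 ± 7.94 CPM in females vs. 11.8 ± 7.86 in males (SD, n = 59) and was higher in the female library of 44 strains. This was a log2FC of 0.68 with an SE of 0.14 (adjusted p = 2.08e-05), or 1.61-fold.

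*Fosb* ranged from 0.304 TPM through 0.825 to 3.43 in females (second lowest 0.328) and from 0.145 through 0.812 to 8.31 in males. The medians were alike, and the highest values were in males of BXD19/TyJ (8.31) and BXD71/RwwJ (6.39). Its log2FC was 0.06 (SE 0.14, adjusted p = 0.733), with the female library higher in 33 of 59 strains, and the sign turned under other settings given in the closing section.

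*Jun* ranged from 3.18 TPM through 25.05 to 46.9 in females (second lowest 10.9) and from 9.17 through 27.1 to 52.1 in males. The sexes overlapped almost fully. In matched strains it averaged 54.5 ± 14.2 CPM in females vs. 60.8 ± 15.1 in males (SD, n = 59) and was higher in the male of 39 strains, at -0.15 on the log2FC scale (SE 0.06, adjusted p = 0.0287). This call was lost with library totals in place of TMM factors (log2FC -0.04, adjusted p = 0.547), on log2(TPM + 1) (-0.07, adjusted p = 0.393) and without the strain block (-0.15, adjusted p = 0.0745).

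*Junb* ranged from 1.78 TPM through 19.1 to 49.1 in females (second lowest 6.196) and from 2.36 through 14.5 to 33.3 in males. Females reached higher values, led by AXB12/PgnJ and KK/HlJ (38.8), with broad overlap below. It averaged 27.7 ± 8.92 CPM in females vs. 21.02 ± 7.77 in males (SD, n = 59) and was higher in the female of 45 strains, the most of the members higher in females. Its log2FC was 0.43 (SE 0.08, adjusted p = 7.60e-06).

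*Atf3* ranged from 1.18 TPM through 5.10 to 53.2 in females and from 0.970 through 10.7 to 107.01 in males. The highest female value came from a library that went against its label, and the next was 30.8. The 2 highest males, KK/HlJ (107.01) and CE/J (96.6), had females at 15.5 and 24.0 TPM, above the upper quartile of females at 8.59. *Atf3* averaged 6.70 ± 4.91 CPM in females vs. 16.2 ± 18.3 in males (SD, n = 59) and was higher in the male of 47 strains. Its log2FC was -0.85 (SE 0.18, adjusted p = 4.44e-05), or 1.81-fold higher in males, the largest difference of the 10 genes and larger in size than that of 92.2% of all genes.

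*Egr1* ranged from 1.88 TPM through 19.4 to 89.02 in females (second lowest 7.03) and from 4.93 through 13.8 to 52.9 in males. The KK/HlJ female stood well above the next female, NZB/BlNJ at 62.05, while the NZB/BlNJ male was the lowest male. In matched strains it averaged 50.2 ± 27.2 CPM in females vs. 39.6 ± 18.4 in males (SD, n = 59), higher in the female of 37 strains, and its log2FC was 0.32 (SE 0.11, adjusted p = 0.00803).

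*Ier2* ranged from 1.47 TPM through 15.6 to 35.6 in females (second lowest 7.23) and from 3.70 through 12.1 to 29.3 in males. It averaged 18.7 ± 5.81 CPM in females vs. 14.7 ± 3.93 in males (SD, n = 59) and was higher in the female of 43 strains, at a log2FC of 0.34 (SE 0.07, adjusted p = 3.54e-05). *Nr4a1* ranged from 0.655 TPM through 6.19 to 13.8 in females (second lowest 1.98) and from 1.43 through 5.31 to 16.9 in males. The sexes of *Nr4a1* overlapped throughout, the female library was higher in 34 of 59 strains, and its log2FC was 0.09 (SE 0.09, adjusted p = 0.388).

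Among the feedback regulators, *Dusp1* ranged from 3.49 TPM through 36.6 to 107.4 in females (second lowest 13.96) and from 16.1 through 46.7 to 105.6 in males. The highest *Dusp1* library of females came from BXD24/TyJ-Cep290<rd16>/J, whose male was the second highest male at 88.4. It averaged 43.2 ± 18.5 CPM in females vs. 53.8 ± 17.9 in males (SD, n = 59) and was higher in the male of 38 strains, at a log2FC of -0.35 (SE 0.09, adjusted p = 0.000352). *Btg2* ranged from 1.89 TPM through 34.1 to 68.7 in females (second lowest 10.9) and from 8.25 through 36.2 to 71.7 in males. Its log2FC of -0.07 (SE 0.06, adjusted p = 0.291) went with a higher male library in 35 of 59 strains. Leaving out NZW/LacJ, AXB12/PgnJ or CXB11/HiAJ changed neither the call nor the direction of any member.

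**Figure D2:**
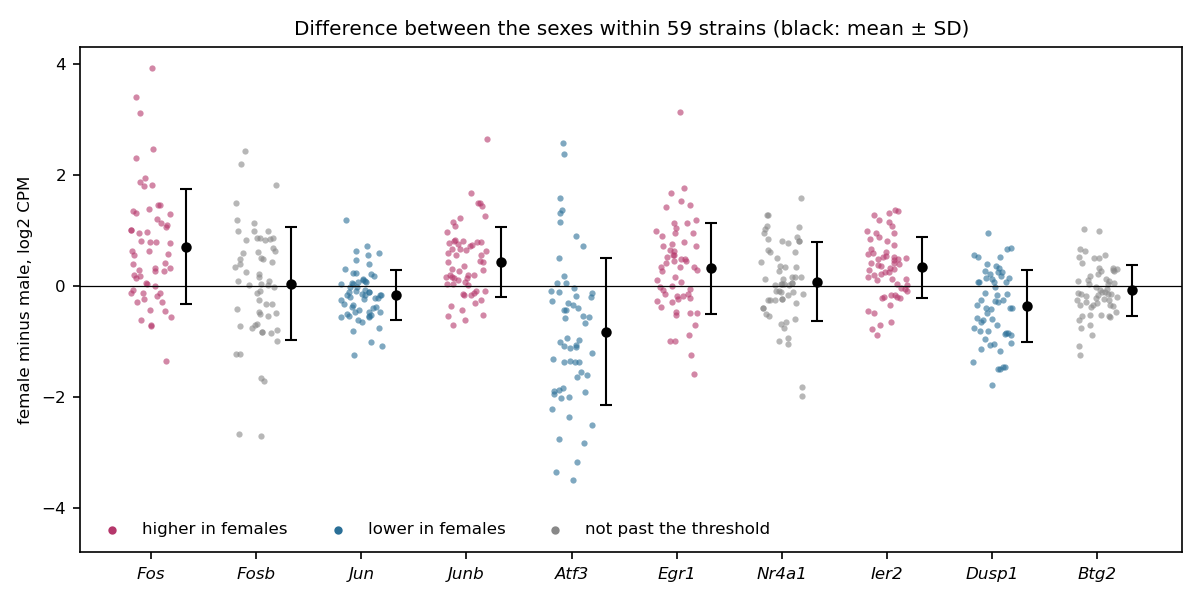
Difference of log2 CPM (female minus male) in each of the 59 matched strains for the 10 genes; each point is 1 strain, coloured by the call of the gene (higher in females, lower in females or not past the threshold), black marks give the mean and SD, and the line at 0 marks equal levels. *Junb* was above 0 in 45 strains and *Fos* in 44, while *Atf3* was below 0 in 47.

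Markers of other cell types moved with sex in the same strains. All 9 mammary epithelial markers were higher in females, with a summed TPM of 1.70 to 4572 in females (median 582) and 0.380 to 554 in males (median 3.33), and 2 of them had a median of 0 in males. The extremes include libraries that went against their label: by mean log2 CPM of these markers the lowest female was BXD69/RwwJ at -2.92 (next 2.06) and the highest male NZW/LacJ at 5.11 (next 4.53). None of 7 macrophage markers was higher in females and 6 were lower, with a summed TPM of 170 to 6842 in females (median 699) and 184 to 2880 in males (median 926). All 5 adipocyte markers and all 5 endothelial markers were lower in females, and 0 of 6 lymphocyte markers passed the threshold. Their part in the differences of the immediate early genes was not tested. In a whole fat pad, fewer cells of a type and less RNA per cell cannot be told apart.

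Of 47 other immediate early and fast-response genes, 46 were tested, 16 were higher in females, 10 were lower and 20 did not pass the threshold, with a median log2FC of 0.09. Of those higher in females, the largest were *Ctgf* (log2FC 1.18), a matricellular protein also called CCN2, *Myc* (0.95), *Egr3* (0.78), *Dusp4* (0.69) and *Socs3* (0.62). *Ctgf* averaged 18.9 ± 11.9 TPM in females vs. 7.61 ± 4.22 in males and *Myc* 26.2 ± 17.8 vs. 12.1 ± 6.47 (SD, n = 59). Of those lower, the largest were *Cyr61* (-0.62), another matricellular protein called CCN1, *Fosl2* (-0.39), *Klf6* (-0.37), *Gadd45g* (-0.35) and *Mafk* (-0.28). Of the FOS-type genes, *Fos* was higher and *Fosl2* lower in females. Of 19 upstream kinases and transcription factors, 3 were higher and 9 lower (median -0.05), with *Srf* at 0.00 and *Creb1* at 0.15. Of 10 heat shock genes 2 were higher and 4 lower, the 2 being the near-identical copies *Hspa1a* (1.29) and *Hspa1b* (2.43), named after their values were seen, between which reads may be split either way. Of 12 clock genes 2 were higher and 3 lower, and of 10 glucocorticoid response genes 1 and 7 (median -0.46).

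Whether the sex difference depended on the strain background was asked with an interaction of sex and BXD membership, 26 BXD against 33 other strains. By edgeR's quasi-likelihood test 0 of 16765 genes were called (0.0%; lowest adjusted p = 0.447), and 314 genes but no member had an unadjusted p under 0.05. Interaction estimates for the members ran from -0.17 (*Fos*) to 0.18 (*Dusp1*). *Atf3* was lower in females by 0.82 ± 0.88 log2 CPM in BXD and 0.84 ± 1.60 in the other strains (mean and SD), and *Fos* was higher by 0.58 ± 0.94 and 0.79 ± 1.11. The SE of these interactions was 0.36 for *Atf3* and 0.27 for *Fos*.

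*Fosb* was the member that differed between strain families in both sexes. Families were compared within a sex by the quasi-likelihood F test with classical inbred strains as the reference. In females 8.73% of 20270 genes were called, and *Fosb* alone of the 10 members was (adjusted p = 0.0280). Its TPM in females ran from 0.328 through a median of 0.718 to 1.81 in 21 classical inbred strains and from 0.304 through 1.08 to 3.43 in 32 BXD strains. The ranges overlapped, with the upper values in BXD. The log2FC (BXD vs. classical) was 0.64 (SE 0.18, adjusted p = 0.0102), and 12.4% of genes were called for this coefficient, against 0.0148% for that of CXB. The family call was kept without BXD34/TyJ and AXB12/PgnJ (adjusted p = 0.0381) and lost with library totals in place of TMM factors (0.0662).

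In males 13.1% of 19283 genes were called between families, and *Fosb* (adjusted p = 0.0151) and *Junb* (0.0290) were the 2 members called. Male *Fosb* ran from 0.145 TPM through 0.597 to 1.22 in 23 classical inbred strains and from 0.175 through 0.978 to 8.31 in 34 BXD strains. Within BXD the male median was 0.648 TPM in 12 BXD/TyJ strains and 1.13 in 22 BXD/RwwJ strains. In females these medians were 1.09 and 1.08. The BXD19/TyJ, BXD71/RwwJ and BXD85/RwwJ males (8.31, 6.39 and 5.98) stood far above every classical inbred male. Its log2FC (BXD vs. classical) was 1.22 (SE 0.28, adjusted p = 0.00220), with 8.63% of genes called for this coefficient. The 3 CXB males had *Junb* at 2.36, 7.41 and 9.88 TPM, each below the lowest classical inbred male at 9.91. On the TMM-scaled log2 CPM scale they lay at 2.83, 3.54 and 3.90, and the lowest classical inbred male, C57BL/6J, lay at 3.74, so the groups overlapped there. The *Junb* log2FC (CXB vs. classical) was -1.08 (SE 0.32, adjusted p = 0.108), with 0.239% of genes called. Without the CXB11/HiAJ male the family call of *Junb* was lost (adjusted p = 0.0922), and that coefficient was -0.87. *Ier2* was at adjusted p = 0.0651 in males and passed the threshold in 4 of 7 alternatives. Medians in BXD/TyJ and BXD/RwwJ also differed for members other than *Fosb*. For *Junb* they were 9.04 and 15.3 TPM in males and 10.5 and 20.1 in females. For *Fos* they were 6.39 and 9.70 in males and 8.53 and 17.8 in females. Median *Dusp1* in males went the other way (46.8 and 45.2). The BXD/TyJ females include BXD34/TyJ, and this contrast within BXD was not tested.

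**Figure D3:**
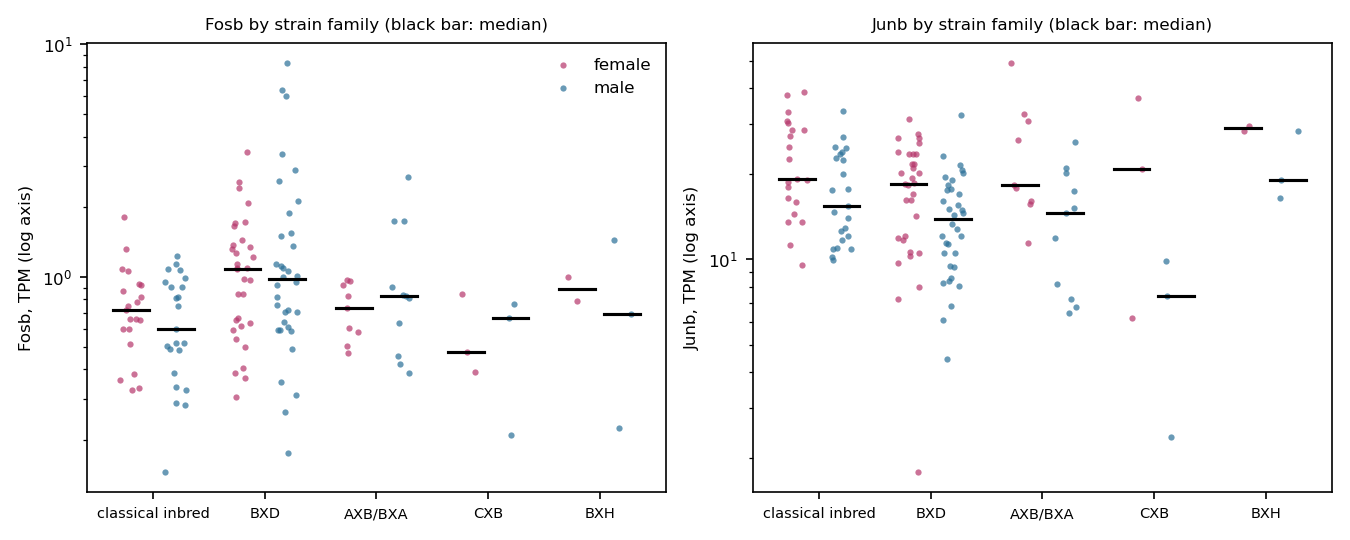
TPM of *Fosb* and *Junb* per library on log axes by strain family and sex; each point is 1 library and the black bar is the family median. The highest *Fosb* values, up to 8.31 TPM, are BXD males, and the 3 CXB males lie between 2.36 and 9.88 TPM of *Junb*.

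Levels in the female and male of a strain were related for 3 of the 10 genes, against 52.4% of 16862 genes called by Pearson's r, with adjustment over all genes. A permutation test over the 59 matched strains gave r = 0.42 for *Atf3* (p = 0.00096, adjusted p = 0.00381), with rho = 0.34 (p = 0.00861, adjusted p = 0.0213) and r = 0.34 once the 2 most distant strains were left out. For *Dusp1*, r was 0.33 (permutation p = 0.00982, adjusted p = 0.0233) and rho 0.29 (p = 0.0258, adjusted p = 0.0483), with r = 0.33 without the 2 farthest strains. For *Jun*, r was 0.31 (permutation p = 0.0179, adjusted p = 0.0372) and rho 0.32 (p = 0.0131, adjusted p = 0.0292), with r = 0.33 without the 2 farthest. The lowest was *Nr4a1*, with r = 0.02 (permutation p = 0.855, adjusted p = 0.872) and rho 0.01 (p = 0.910). The median r was 0.21 over the members and 0.30 over all genes. *Junb* was at r = 0.26 (adjusted p = 0.0756), at 0.079 without the 2 farthest strains and at 0.37 without AXB12/PgnJ (adjusted p = 0.00994), so its value depended on a few strains. KK/HlJ and CE/J were strains in which both sexes were high, each among the 5 highest of its sex for 4 or 5 genes by TPM. The BXD85/RwwJ male was among the 5 highest males for 8 of 10 genes, and its female among the 5 highest for none.

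Within a sex the members did not all vary together. Over 45 pairs, 20 were positively and 2 negatively correlated in females, and 23 and 1 in males. These are Pearson's r of log2 CPM with permutation tests of 100000 resamples and adjustment over 45 pairs. The smallest p the resamples can give is 1e-05. The share of correlated pairs among all genes was not computed, so the counts are not set against genes in general. By Spearman's rho over both sexes, each centred on its mean, all genes were ranked by nearness to *Junb*. *Ier2* ranked 1, *Nr4a1* 245 and *Btg2* 1252 in that order. *Junb* and *Ier2* moved most closely in females, with r = 0.84 (p = 1e-05, adjusted p = 6.43e-05), rho = 0.85 (p = 1e-05, adjusted p = 5.62e-05) and r = 0.84 without the 2 farthest libraries. In males the same pair had r = 0.81 (p = 1e-05, adjusted p = 3.21e-05), rho = 0.88 (p = 1e-05, adjusted p = 3.46e-05) and r = 0.83 without the 2 farthest. *Nr4a1* was correlated with both, at r = 0.65 in females and 0.73 in males against *Junb*, and 0.67 and 0.74 against *Ier2*. *Btg2* had r = 0.54 and 0.67 against *Junb* and 0.43 and 0.76 against *Ier2*, and *Egr1* had 0.67 and 0.51 against *Ier2*. *Fos* and *Atf3* had r = 0.50 in females (permutation p = 3e-05, adjusted p = 0.000113; rho = 0.48, p = 3e-05; r = 0.46 without the 2 farthest). In males they had r = 0.82 (permutation p = 1e-05, adjusted p = 3.21e-05; rho = 0.80, p = 1e-05; r = 0.79 without the 2 farthest). *Jun* and *Dusp1* had r = 0.71 in females and 0.66 in males (permutation p = 1e-05 in each, rho = 0.69 and 0.64). Within AP-1, *Fos* and *Fosb* were related more loosely (r = 0.42 and 0.37).

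The pairs below 0 depended on the scaling and on the libraries included. *Junb* and *Dusp1* had r = -0.44 in females on TMM-scaled log2 CPM (permutation p = 0.00016, adjusted p = 0.000400), -0.19 with library totals (adjusted p = 0.152) and 0.12 on log2(TPM + 1). Over the 67 female and the 74 male libraries, no pair passed the threshold below 0 with library totals or on log2(TPM + 1). Over the females of the 59 matched strains, which leave out BXD34/TyJ, *Junb* and *Dusp1* had r = -0.55 with TMM factors, -0.42 with library totals and -0.22 on log2(TPM + 1), and *Ier2* and *Dusp1* had -0.54, -0.43 and -0.24. On log2(TPM + 1) the pairs correlated above 0 were 37 in females and 42 in males.

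**Figure D4:**
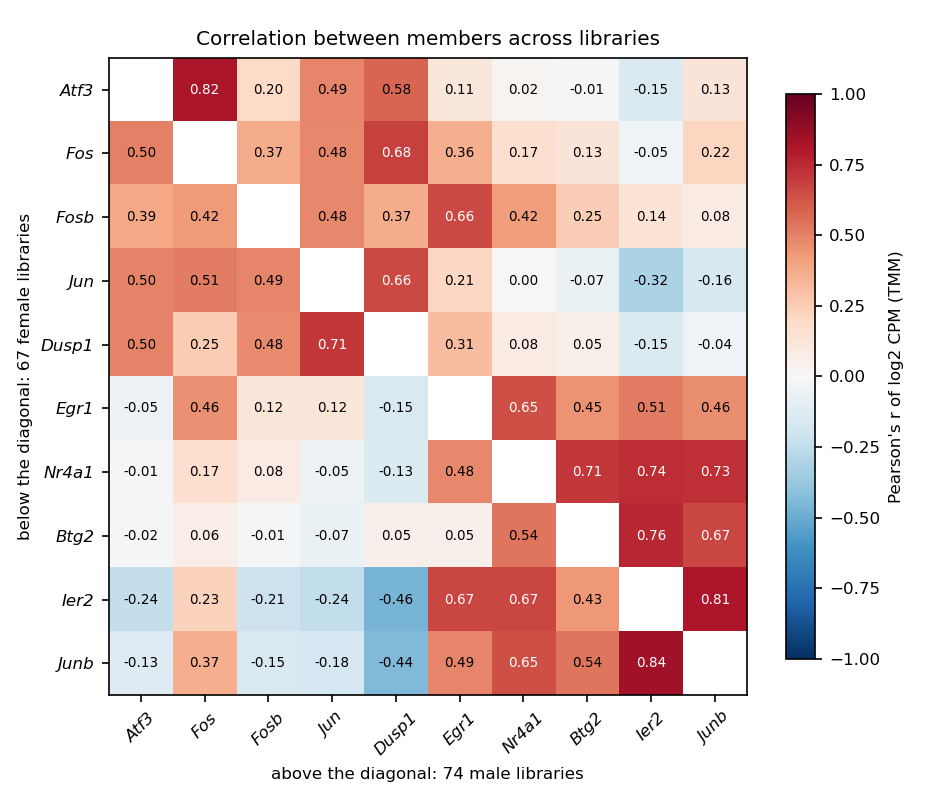
Pearson's r of log2 CPM for each of the 45 pairs of immediate early genes in 67 female libraries (below the diagonal) and 74 male libraries (above it); colour gives r from -1 to 1. *Junb*, *Ier2* and *Nr4a1* have high values with each other in both sexes, and the *Fos* and *Atf3* square is deeper in males (0.82) than in females (0.50).

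The members also differed in which cell type markers they varied with. In each sex 140 relations were computed, between the 10 genes and 14 library measures, and 33 passed adjustment in females and 56 in males. The same relations were not computed for other genes, so these counts are not set against genes in general. *Atf3* followed the macrophage markers in females (r = 0.58, permutation p = 1e-05, adjusted p = 0.000100; rho = 0.56, p = 1e-05; r = 0.60 without the 2 farthest). In males *Atf3* had a higher value (r = 0.82, permutation p = 1e-05, adjusted p = 8.24e-05; rho = 0.84, p = 1e-05; r = 0.84 without the 2 farthest). *Fos* had r = 0.72 with the macrophage markers in males (permutation p = 1e-05, adjusted p = 8.24e-05; rho = 0.72, p = 1e-05; r = 0.72 without the 2 farthest). In females *Fos* had r = 0.14 with them (permutation p = 0.270, adjusted p = 0.445; rho = 0.16, p = 0.206), a relation that passed with library totals (r = 0.30, adjusted p = 0.0372) and on log2(TPM + 1) (r = 0.54, adjusted p = 4.52e-05).

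In females *Fos* and *Egr1* varied with the mammary epithelial markers. *Fos* had r = 0.33 with them (permutation p = 0.00579, adjusted p = 0.0270; rho = 0.50, p = 3e-05; r = 0.53 without the 2 farthest), and r = 0.28 (adjusted p = 0.0686) without BXD34/TyJ and AXB12/PgnJ. *Egr1* had r = 0.43 (permutation p = 0.00041, adjusted p = 0.00261; rho = 0.53, p = 1e-05; r = 0.58 without the 2 farthest). In males r was -0.17 for *Fos* and -0.10 for *Egr1* (adjusted permutation p = 0.273 and 0.582). These markers were near the floor in males, which limits what a correlation can show. Over the males of the 59 matched strains *Atf3* had r = -0.39 with the same markers.

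*Junb* and *Ier2* were lower where adipocyte markers were higher. *Ier2* had r = -0.72 in females (permutation p = 1e-05, adjusted p = 0.000100; rho = -0.76; r = -0.71 without the 2 farthest) and r = -0.66 in males (permutation p = 1e-05, adjusted p = 8.24e-05; rho = -0.66; r = -0.64 without the 2 farthest). *Junb* had r = -0.67 and -0.69, with the female value at -0.13 (adjusted p = 0.360) on log2(TPM + 1). *Ier2* had r = 0.62 and 0.72 with lymphocyte markers. *Dusp1* went the other way with adipocyte markers, at r = 0.70 in females and 0.38 in males, and had r = 0.66 and 0.52 with endothelial markers. *Jun* had r = 0.63 in females and 0.67 in males with endothelial markers. The part of each cell type in these levels was not tested.

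**Figure D5:**
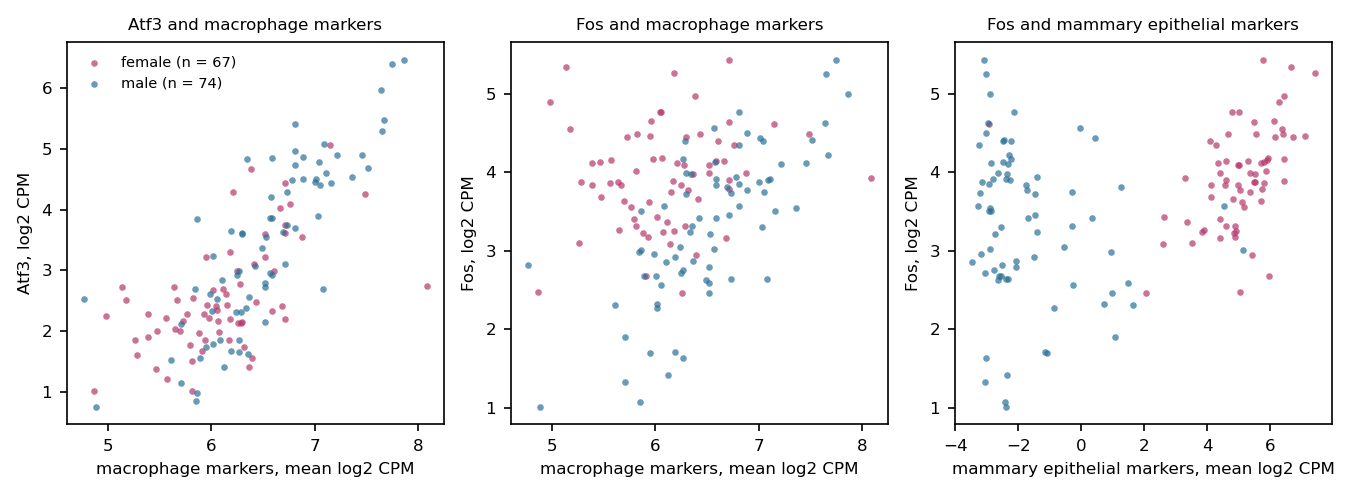
Log2 CPM of *Atf3* or *Fos* against the mean log2 CPM of macrophage or mammary epithelial markers; each point is 1 library, 67 female and 74 male in different colours. *Atf3* rises with the macrophage markers in both sexes (r = 0.58 and 0.82), and on the mammary epithelial axis the female at -2.92 (BXD69/RwwJ) and the male at 5.11 (NZW/LacJ) go against their label, while the PL/J male lies at 4.53.

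The mitochondrially encoded share moved with several members. In males 8 of the 10 genes were lower where it was higher, and the share among all genes was not computed. The largest was *Btg2*, with r = -0.51 (permutation p = 1e-05, adjusted p = 8.24e-05; rho = -0.44, p = 9e-05; r = -0.39 without the 2 farthest). *Fos* was next, with r = -0.48 (permutation p = 3e-05, adjusted p = 0.000233; rho = -0.43, p = 0.00012; r = -0.44 without the 2 farthest). In females it passed for *Btg2* (r = -0.62, permutation p = 1e-05, adjusted p = 0.000100; rho = -0.44; r = -0.43 without the 2 farthest) and *Atf3* (r = -0.31, permutation p = 0.0113, adjusted p = 0.0479; rho = -0.37; r = -0.40 without the 2 farthest). The part of this share in the levels of the members was not tested. The number in the sample title, by contrast, passed for none of the 10 genes in either sex, with rho between -0.18 and 0.20.

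Gene by gene over the 67 female and 74 male libraries together, with each sex centred on its mean, the genes nearest to *Atf3* by Spearman's rho were *Atp6v0d2* (0.90), *Mmp12* (0.89) and *Tm4sf19* (0.88). *Junb* was nearest to *Ier2* (0.86), and *Nr4a1* to *Ier2* (0.71) and *Junb* (0.71). *Egr1* was nearest to *Dusp6* (0.59), a further MAP kinase phosphatase, then to *Ier2* and *Nr4a1*. *Fos* was nearest to *Fam129b* (0.77), with *Atf3* at rank 4, *Btg2* to *Mcl1* (0.76), *Jun* to *Dusp8* (0.74), *Dusp1* to *Rhob* (0.73) and *Fosb* to *Vash1* (0.51). The genes with the highest mean rho with all 10 members were *Egr2* (0.33), an EGR family factor, *Myo1e* (0.32), *Dusp6* (0.32), *Itgax* (0.32), *Wsb1* (0.32), *Tpd52* (0.31), *Dnmt3a* (0.31), *Ifngr2* (0.31) and *Nab2* (0.31), an EGR corepressor, with a further identifier without a symbol that held the same values as *Egr2*. These are descriptions, over libraries that differed in depth and in their cell type markers.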

How the data were processed

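The authors quantified stranded paired-end reads with kallisto 0.46.1 (submitters' processing notes) against Ensembl release 97 transcripts of GRCm38/mm10 and summarised them to genes with tximport. They deposited estimated counts and TPM values per gene for each strain and sex. Kallisto divides reads among similar transcripts, so values of genes with near-identical copies are estimates. Here the deposited estimated counts were rounded, and gene names came from GENCODE M21 (35935 of 36558 identifiers).

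The members and gene lists were chosen with earlier results of these data known. Sexes were compared in 59 matched strains with edgeR 4.0.16 (filterByExpr, TMM, quasi-likelihood test, strain and sex as terms), with Benjamini-Hochberg adjustment over all genes and a threshold of 0.05. Strain is the pairing, as the labels give the same strain to both libraries. Deviations of the 2 sexes of a strain correlated at a mean r of 0.411 over genes (lowest -0.307), against -0.0072 for unlike strains. An r over 0.1 was seen in 45 of 59 same-strain pairs and in 1499 of 3422 pairs of unlike strains. The female library correlated best with the male of its own strain in 37 of 59 strains. Families were compared within a sex. Correlations used log2 CPM with a prior count of 2 and 100000 resamples. Adjustment of the agreement between sexes was planned over 10 members and was made over all 16862 genes instead. A test of whether a correlation differed between the sexes was added after seeing the data. Alternatives were DESeq2 1.42.0, limma 3.58.1, limma on log2(TPM + 1) and log2(TPM + 0.1), other size factors, other filters and leaving out libraries. Of the 59 strains, 36 were left out in turn. Further genes were named by rule: the 5 largest past the threshold in each direction of the list of other immediate early genes, and the 10 with the highest mean rho with the members at a mean of at least 1 TPM. The genes nearest to each member were named after their values were seen. The fits were tested on simulated data. With 1 library per strain and sex, p-values of the sex test measure the spread of the female-male difference over strains. Those of the family and correlation tests rest on differences between strains. A floor of 3 counts and the depth cover counting error only. R 4.3.3 and Python 3.11.15 were used.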

Additional observations from a re-analysis of the deposited data

Results flagged for a closer look

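Over the 59 matched strains, 95 correlations were compared between the sexes by exchanging the sex labels within strains, a test added after seeing the data, and 11 of 95 differences passed adjustment. Of these, 9 also passed with library totals, 6 on log2(TPM + 1) and 10 without AXB12/PgnJ, CXB11/HiAJ and NZW/LacJ, and 6 passed in every one of these settings: *Fos* with *Dusp1*, with the macrophage and with the mammary epithelial markers, *Egr1* with *Btg2* and with the mammary epithelial markers, and *Ier2* with *Btg2*. *Fos* had r = 0.17 with *Dusp1* in females and 0.72 in males (adjusted permutation p = 0.00475), and r = 0.49 and 0.81 with *Atf3* (adjusted permutation p = 0.0252, and 0.0674 on log2(TPM + 1)). *Fos* had r = 0.089 with the macrophage markers in females and 0.72 in males (adjusted permutation p = 0.00443), and r = 0.54 and -0.11 with the mammary epithelial markers (adjusted permutation p = 0.00443).

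*Egr1* had r = 0.58 with the mammary epithelial markers in females and -0.10 in males (adjusted permutation p = 0.00443), r = -0.25 and 0.18 with the macrophage markers (adjusted permutation p = 0.0478, lost in all 3 alternatives at 0.120, 0.163 and 0.210), and r = -0.15 and 0.45 with *Btg2* (adjusted permutation p = 0.0119). *Ier2* and *Btg2* had r = 0.33 in females and 0.76 in males (adjusted permutation p = 0.0119). *Junb* and *Dusp1* had r = -0.55 and -0.093 (adjusted permutation p = 0.0330, and 0.0674 on log2(TPM + 1)). *Atf3* had r = 0.51 and 0.82 with the macrophage markers (adjusted permutation p = 0.0330, and 0.0658 on log2(TPM + 1)), and *Dusp1* r = 0.72 and 0.44 with the adipocyte markers (adjusted permutation p = 0.0432, lost with library totals at 0.0603 and on log2(TPM + 1) at 0.399). The mammary epithelial markers were near the floor in males, at a median summed TPM of 3.33 with 2 of 9 genes at a median of 0. *Atf3* had r = 0.019 with them in females and -0.39 in males (adjusted permutation p = 0.123 for the difference). How far the level of the markers set the male values of *Fos* and *Egr1* was not tested. The differences of *Fos* and *Egr1* in their relation to these markers are given as values only.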

How the results depend on the processing

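The count of members called between the sexes was 7 as reported and 6 to 7 over 14 alternatives, with 4 higher in females in each of them and 2 to 3 lower. Leaving out each of 36 strains gave 7, 4 and 3 throughout. Without the replicate block that pairs the libraries of a strain the count was 6, *Jun* being lost (log2FC -0.15), and *Fosb* turned to -0.14 there and to -0.22 over every library without it. *Fosb* was also below 0 by limma-voom (-0.053) and on log2(TPM + 1) (-0.022), and *Btg2* was above 0 with library totals (0.038); neither gene was called in any setting. Library totals moved the median log2FC of all genes from 0.01 to 0.12 and the calls to 7410 higher and 2774 lower, against 4759 and 4988 as reported, and log2(TPM + 1) gave 5354 and 2878. Between families the members called were 0 in females with library totals and 1 in males without the CXB11/HiAJ male (added after seeing the data). The strain agreement of the sexes was called for 5 members on log2(TPM + 1), and for 3 as reported, where 52.4% of 16862 genes were called. The share of all genes called in these alternative family and agreement settings is not given here. These counts are therefore not set against genes in general. Pairs of members correlated above 0 were 37 in females and 42 in males on log2(TPM + 1), and pairs below 0 were 0 in each sex on that scale and with library totals, over libraries that include BXD34/TyJ among females. *Junb* and *Dusp1* were at 0.12 in females and 0.29 in males on log2(TPM + 1), and at 0.13 in males with library totals. Relations with library measures in females numbered 59 under library totals and 79 under log2(TPM + 1). The causes were not tested. With 1 library per strain and sex, no spread within a strain could be had, and at a lowest estimated count of 11 the precision of *Fosb* is limited.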
